A study of Bos taurus with 14 samples.

Results

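The miRNAs bta-miR-103 and bta-miR-107 were followed in peripheral white blood cells (PWBC) of 14 Angus-Simmental crossbred heifers bled at weaning. They were selected by name as a pair, with earlier results of these data known, and are 2 of the 1030 mature miRNAs in the count table and 2 of the 341 that passed the filter on low counts (a CPM, the count scaled to a common library total, of at least 1 in at least 7 heifers). The 7 fertile heifers (FH) later became pregnant to artificial insemination (AI). The 7 subfertile heifers (SFH) were not pregnant to AI, nor after the bull exposure that followed it. All 14 were synchronized and inseminated by the same protocol after the sampling, and gave 1 small RNA library each. The groups were formed from the later outcome from heifers of comparable age and body weight, and PWBC are a mixture of leukocytes, so that a level in bulk cells does not tell fewer cells of a type from less RNA per cell.

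A miRNA is cut from a hairpin precursor and guides the silencing of mRNAs that pair with its seed, the bases near its 5′ end. miR-103 and miR-107 are near-identical sisters that share this seed and differ by a single base near the 3′ end. Their precursors lie inside genes for pantothenate kinases, the enzymes that open coenzyme A synthesis, and the pair is known for lowering insulin sensitivity in liver and fat, through caveolin-1 among other targets, and for acting on Dicer, the enzyme that matures miRNAs. miR-103 is also a common reference for miRNA measurements in blood because its level tends to be even. RefSeq's gene table for ARS-UCD2.0 is of another assembly than the one the reads were aligned to, and in it the precursor gene MIR103-1 lies inside *PANK3*, MIR103-2 inside *PANK2* and MIR107 inside *PANK1*. An overlap with a protein-coding gene is common there, with 681 of 1032 named bovine miRNA genes (66.0%). The mRNAs of the host genes were not analysed here.

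Depth on mature miRNAs ran from 1754971 to 5468341 counts, with a median of 3319368 in FH and 2663375 in SFH. bta-miR-103 was abundant, with 14175 to 64481 counts per heifer, and bta-miR-107 had 716 to 3181 counts. No heifer lacked either miRNA. The labelled cell type was checked against leukocyte markers. miR-142-5p, found throughout leukocytes, had 10389 ± 3636 CPM in FH heifers against 14141 ± 4999 CPM in SFH heifers (SD, n = 7 per group), and miR-142-3p of the same hairpin had 152 ± 109 CPM in FH heifers against 143 ± 33.7 CPM in SFH heifers. miR-150 of mature lymphocytes had 65601 ± 15939 CPM in FH heifers against 65247 ± 21033 CPM in SFH heifers, and miR-223 of granulocytes and monocytes had 16435 ± 4122 CPM in FH heifers against 20291 ± 4630 CPM in SFH heifers.

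bta-miR-103 appears in the count table in duplicate and bta-miR-107 once, which makes 3 entries for the pair. The listing with the higher total was used for all values, and it is also the one behind the CPM table of the authors. The other listing held 98.4% to 99.3% of its count in every heifer, a gap of 167 to 878 counts. The table does not name the precursor of a listing, and with counts this close in all 14 heifers the listings were not added to each other. Whether reads of one sister were counted on the other was not tested, because the reads were not analysed here.

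bta-miR-103 was the higher sister in all 14 heifers, and the gap between them varied widely. Over the 14 heifers the mean was 11576 ± 2270 CPM for bta-miR-103 and 496 ± 139 CPM for bta-miR-107 (SD, n = 14). The mature forms are of like length, but ligation and PCR can recover different small RNAs unequally, which was not tested, so the comparison is of read counts. The mean within-heifer log2 ratio of bta-miR-107 to bta-miR-103 was −4.57 (SD 0.48, n = 14), or a count 23.7 times as high for bta-miR-103 (exact two-sided sign-flip permutation test, p = 0.000122, the smallest that 14 heifers allow). The size of this gap depends on the use of a single listing of bta-miR-103. With both listings summed the mean log2 ratio was −5.56.

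The share of bta-miR-107 in the counts of both was 4.30 ± 1.01% in FH heifers against 4.13 ± 1.48% in SFH heifers (SD, n = 7 per group). It was lowest in SFH heifer 21, at 1.86% (exact 95% binomial interval 1.724% to 1.996%), and highest in SFH heifer 30, at 6.65% (6.43% to 6.88%). Among FH heifers it ran from 2.78% in heifer 27 (2.66% to 2.91%) to 6.08% in heifer 22 (5.71% to 6.48%). The intervals cover counting error only. Both extremes of the 14 were SFH heifers, and the FH range lay inside the SFH range.

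**Figure D1:**
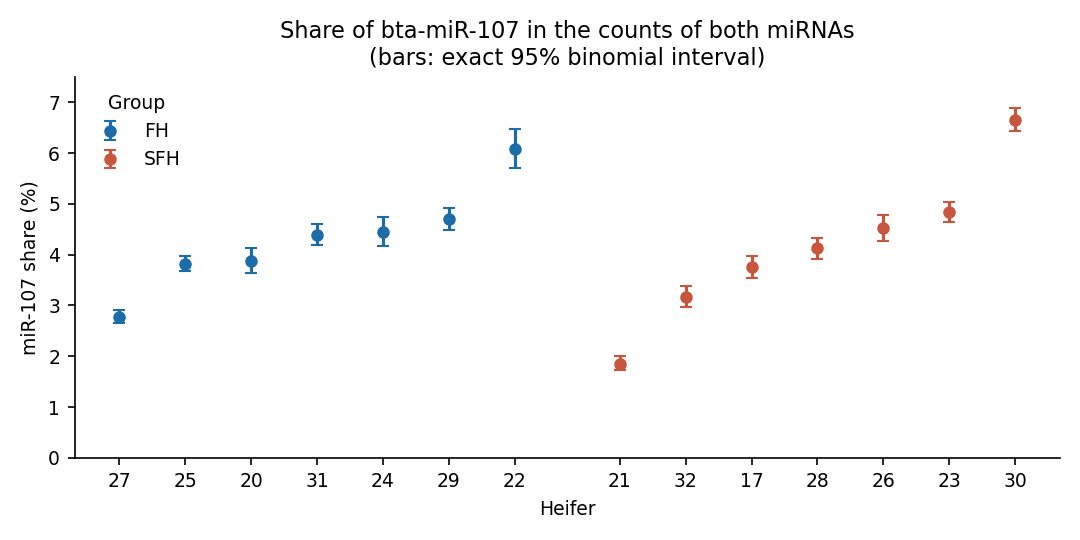
Share of bta-miR-107 in the summed counts of bta-miR-103 and bta-miR-107 (y axis, percent) in each heifer (x axis, heifer number, ordered by share within FH and SFH), with exact 95% binomial intervals as bars. The share ran from 1.86% in heifer 21 to 6.65% in heifer 30, both SFH, and the groups overlapped over the whole FH range.

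Whether the balance between the sisters differed with fertility was asked on the log2 ratio, which needs no scaling between libraries. It averaged −4.51 ± 0.36 in FH heifers against −4.63 ± 0.60 in SFH heifers (SD, n = 7 per group). The difference (SFH minus FH) was −0.12, which lay inside that spread (p = 0.684 in an exact two-sided permutation test, 95% interval of the difference −0.68 to 0.44, n = 7 per group). The interval runs from 0.624 to 1.35 times the ratio in FH, so it does not show that the balance was the same. The direction turned without SFH heifer 21 (0.07), and the difference was −0.25 without SFH heifer 30.

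Among the 341 miRNAs, bta-miR-103 ranked 21st by mean CPM, and between 16th and 28th in single heifers. It took 1.16% of the counts on retained miRNAs. Its neighbours in that order were picked for their mean CPM, so that a small difference from them follows from the choice. The mean within-heifer log2 difference was 0.01 (SD 0.69) for bta-miR-142-5p and −0.02 (SD 0.49) for bta-let-7d just above it. It was −0.05 (SD 0.34) for bta-miR-23b-3p just below it. bta-miR-10174-3p, the next below, has the same count as bta-miR-23b-3p in all 14 heifers and is no separate comparison. bta-miR-107 ranked 93rd, between 78th and 115th in single heifers. Next to it were bta-miR-1343-3p, bta-miR-192, bta-miR-92b and bta-let-7e, each within 1 SD of it and likewise picked for mean CPM.

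bta-miR-103 was one of the most even miRNAs of the series. The SD of its log2(TMM-normalized CPM + 0.5) over the 14 heifers was 0.26, and 10 of the 341 miRNAs had a smaller one (TMM is a scaling by a trimmed mean of ratios between libraries). The median SD was 0.92 over all 341 miRNAs and 0.39 over the 20 miRNAs nearest to it in abundance. bta-miR-107 had an SD of 0.38, with 44 miRNAs below it and a median of 0.51 over its own 20 neighbours in abundance. Low counts widen the SD of rare miRNAs, which is why the neighbours are given.

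The main comparison was SFH against FH, the contrast the study was designed for. bta-miR-103 was at 10515, 7456, 10733, 12443, 12252, 9868 and 10417 TMM-normalized CPM in FH heifers 20, 22, 24, 25, 27, 29 and 31. In SFH heifers 17, 21, 23, 26, 28, 30 and 32 it was at 14113, 14198, 13664, 9579, 11372, 11413 and 13298. SFH heifers 17, 21, 23 and 32 were above every FH heifer, whereas SFH heifer 26 was below 6 of the 7 FH heifers, so the groups overlapped. FH heifer 22 was the lowest of the 14.

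The mean of bta-miR-103 was 10526 ± 1662 TMM-normalized CPM in FH heifers against 12520 ± 1754 in SFH heifers (SD, n = 7 per group). Its log2 fold change was 0.25 (standard error 0.15), or 1.19 times higher in SFH, and it ranked 33rd of 341 by p-value. edgeR's quasi-likelihood fit gave an unadjusted p-value of 0.103 and a Benjamini-Hochberg adjusted p-value of 0.890. The difference in mean log2 level was likewise 0.25 in the exact two-sided permutation test (p = 0.0594, 95% interval −0.01 to 0.52, n = 7 per group), and 6 of the 7 SFH heifers were above the FH median. The interval reaches from 0.993 to 1.43 times the FH level.

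The call on bta-miR-103 depended on the scaling of the libraries. On the CPM table of the authors, which is scaled by totals alone, it had 10287 ± 1707 CPM in FH heifers against 12866 ± 2091 CPM in SFH heifers (SD, n = 7 per group), a difference of 0.32 in mean log2 level (exact two-sided permutation test, p = 0.0309). With library totals only, edgeR's p-value was 0.0416, and the log2 fold change of 0.32 was still short of the threshold of 0.5. FH heifer 29 moved most between these scales, from 8066 CPM to 9868 TMM-normalized CPM, and had the TMM factor farthest from 1 (0.817). The median log2 fold change of all 341 miRNAs was 0.06 with TMM and 0.12 with totals only, and bta-miR-103 lay 0.19 and 0.21 above it. In limma-voom the median was 0.14, and bta-miR-103 lay 0.10 and bta-miR-107 0.03 above it.

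**Figure D2:**
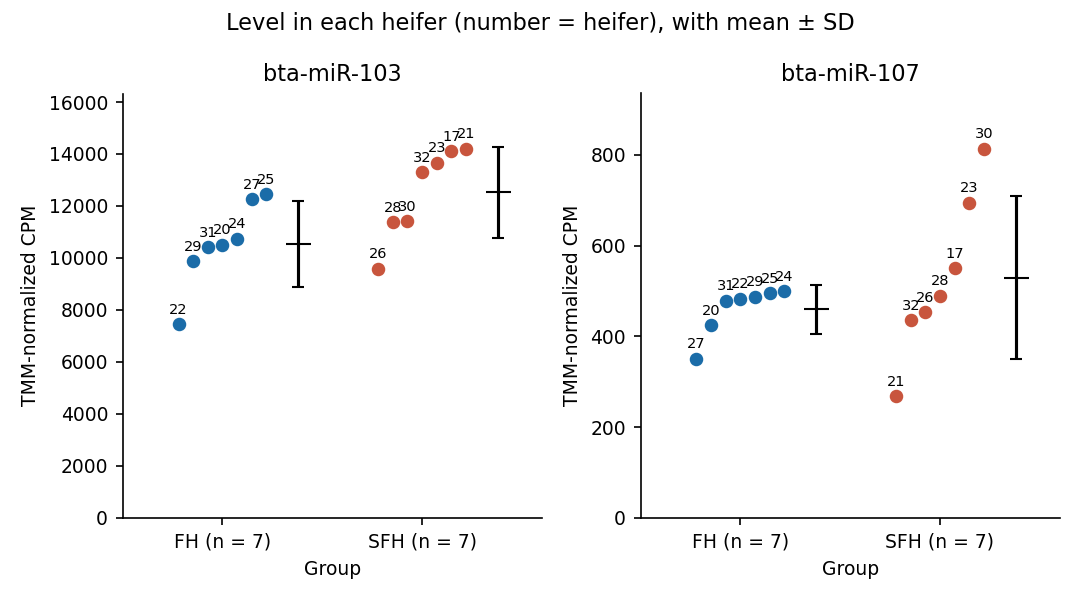
Level of bta-miR-103 (left) and bta-miR-107 (right) in TMM-normalized CPM (y axes, from 0) in each FH and SFH heifer, with the heifer number beside its point and the mean ± SD of each group (n = 7) as the black bar. Heifers 17, 21, 23 and 32 of the SFH group lie above every FH heifer for bta-miR-103, and SFH heifers span 269 to 813 for bta-miR-107, around the narrower FH range of 350 to 499.

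bta-miR-107 was at 424, 483, 499, 495, 350, 487 and 479 TMM-normalized CPM in FH heifers 20, 22, 24, 25, 27, 29 and 31. In SFH heifers 17, 21, 23, 26, 28, 30 and 32 it was at 551, 269, 694, 453, 489, 813 and 436. The SFH range enclosed the FH range on both sides, with heifers 17, 23 and 30 above every FH heifer and heifer 21 below every one. Heifer 21 had the lowest bta-miR-107 of the 14 and, with heifers 17, 23 and 32, one of the 4 highest values of bta-miR-103 on the TMM scale and in the CPM table of the authors.

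The mean of bta-miR-107 was 460 ± 54.2 TMM-normalized CPM in FH heifers against 529 ± 179 in SFH heifers (SD, n = 7 per group). Its log2 fold change was 0.20 (standard error 0.22), at rank 123 of 341 by p-value, with an unadjusted p-value of 0.370 and a Benjamini-Hochberg adjusted p-value of 0.947 in edgeR. In the exact two-sided permutation test the difference in mean log2 level was 0.14 (p = 0.530, 95% interval −0.32 to 0.57, n = 7 per group). Without SFH heifer 30 the log2 fold change was 0.07, and without SFH heifer 21 it was 0.32. These heifers also lay at the ends of the 5 lymphocyte miRNAs summed (miR-150, miR-342, miR-155, miR-181a and miR-181b), heifer 30 with the highest of the 14 (144193 CPM) and heifer 21 with the lowest (66177 CPM). Heifer 30 had the highest sum of red cell miRNAs as well, at 9236 CPM, with the next at 4193 CPM in heifer 17. Their part in the result was not tested.

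The sum of both was also compared. A read counted on both sisters would enter it more than once, which was not tested. The sum averaged 10986 ± 1642 TMM-normalized CPM in FH heifers against 13049 ± 1731 in SFH heifers (SD, n = 7 per group), of which bta-miR-103 made up most. The difference in mean log2 level was 0.25 (exact two-sided permutation test, p = 0.0501, 95% interval 0.0 to 0.50), just short of the threshold. With library totals only it was 0.32 (exact permutation p = 0.0256).

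Of the pair, 0 passed the thresholds of the study in edgeR with TMM, DESeq2 or limma-voom (p no higher than 0.05, with a log2 fold change of 0.5 or more in size), and 0 reached that p-value in these 3 fits at any fold change. Among all 341 miRNAs, 13 passed in edgeR (3.81%), of which 5 were higher in SFH (1.47%), and 16 passed in DESeq2. Of the 341, 20 reached the p-value at any fold change in edgeR (5.87%), of which 9 were higher in SFH (2.64%). In DESeq2 21 of the 341 reached it, and in limma-voom 28, of which 23 passed both thresholds. After Benjamini-Hochberg adjustment 0 of the 341 passed (0%) in edgeR and 2 in DESeq2, neither of them of the pair. In DESeq2 the log2 fold change was 0.23 for bta-miR-103, with an unadjusted p-value of 0.135, and 0.18 for bta-miR-107, with one of 0.421.

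The sisters belong to a wider seed group, the miR-15/miR-107 group, whose members share a run of bases at or near the 5′ end and include miR-15 and miR-16, known for holding back the cell cycle and the survival factor BCL2. Of 8 other members searched for, 7 could be tested, 0 passed the thresholds in edgeR or DESeq2 (0 with an unadjusted p-value under 0.05 in edgeR), and bta-miR-503-5p was below the filter with 162 counts in all. Over the 341 miRNAs these shares were 3.81% and 5.87% in edgeR, and 16 passed the thresholds in DESeq2. A count of 0 among 7 is therefore near the background. Their median log2 fold change was 0.09, with 5 above 0 and 2 below, beside a median of 0.06 over the 341 miRNAs, of which 188 were above 0 and 153 below. bta-miR-15b was the most abundant, with 8315 ± 1260 CPM in FH heifers against 7474 ± 1331 CPM in SFH heifers (SD, n = 7 per group; log2 fold change −0.22, standard error 0.15, adjusted p-value 0.898 in edgeR).

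bta-miR-16b had 5458 ± 1162 CPM in FH heifers against 6309 ± 1079 CPM in SFH heifers, and bta-miR-16a had 4604 ± 976 CPM in FH heifers against 4894 ± 963 CPM in SFH heifers (SD, n = 7 per group). bta-miR-15a was near the level of bta-miR-107, at 407 ± 118 CPM in FH heifers against 458 ± 60.2 CPM in SFH heifers. The rest were scarce, with bta-miR-195 at 44.6 ± 11.1 CPM in FH heifers against 66.0 ± 40.3 CPM in SFH heifers. bta-miR-424-5p and bta-miR-497 had no count in 6 heifers each, but reached 21.9 and 20.2 CPM in their highest heifers. Their log2 fold changes of −1.76 (standard error 1.48) and 1.27 (standard error 1.47) were not distinguishable from 0. The part of depth in this was not tested. The mean of bta-miR-103 was above that of each of the 7.

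**Figure D3:**
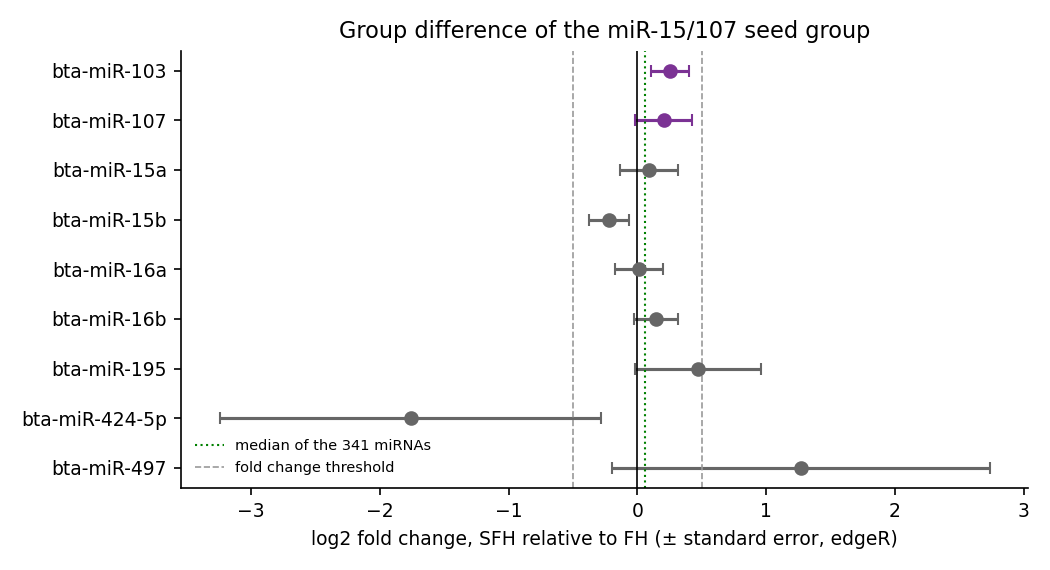
Log2 fold change of SFH relative to FH (x axis, ± standard error, edgeR) for bta-miR-103, bta-miR-107 and the 7 other tested members of the miR-15/miR-107 group (y axis), with the thresholds of 0.5 either way dashed and the median of the 341 miRNAs dotted. bta-miR-103 (0.25) and bta-miR-107 (0.20) lie between the thresholds, and the bars of bta-miR-424-5p and bta-miR-497 are the widest.

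A list of other miRNAs known from insulin action, lipid handling or fat cells was looked at in the same fit. Of its 15 members, 14 were in the table and 10 could be tested. Of these, 0 passed the thresholds in edgeR or DESeq2, 0 had an unadjusted p-value under 0.05 in edgeR, and the median log2 fold change was 0.06, as over all 341 miRNAs. Over all 341 the shares were 3.81% and 5.87% in edgeR, and 16 passed the thresholds in DESeq2. Beside these, a count of 0 among 10 sets the list apart in no way. bta-miR-27b, which restrains fat cell formation, was the most abundant, at 14057 ± 4542 CPM in FH heifers against 13655 ± 4907 CPM in SFH heifers (SD, n = 7 per group). bta-miR-378, from an intron of the coactivator gene *PPARGC1B*, had 2783 ± 447 CPM in FH heifers against 3268 ± 1061 CPM in SFH heifers. bta-miR-29a, a regulator of insulin signalling, had 4218 ± 981 CPM in FH heifers against 4684 ± 604 CPM in SFH heifers. bta-miR-375 had 2716 ± 1406 CPM in FH heifers against 2609 ± 711 CPM in SFH heifers. bta-miR-33a and bta-miR-33b of the cholesterol regulators *SREBF2* and *SREBF1* and bta-miR-370 had 0 counts in all 14 heifers, and the 3 counts that an empty library could still hide equal 0.549 to 1.71 CPM. bta-miR-122 of liver had 38 counts in all.

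No common rise and fall of the sisters was detected across the 14 heifers. On log2(TMM-normalized CPM + 0.5), Pearson's r between them was −0.09 (permutation test with 100000 resamples, p = 0.766, adjusted over 6 relations 0.766) and Spearman's rho was 0.09 (p = 0.751, adjusted 0.901). Within groups r was −0.37 in FH and −0.20 in SFH (n = 7 each). Without FH heifer 22 and SFH heifer 21, the pair farthest from the median of bta-miR-103, r was 0.22. With library totals only r was 0.08, so its sign depended on the scaling. By likeness to bta-miR-103, bta-miR-107 ranked 224th of 340 miRNAs.

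The 5 miRNAs with the pattern most like bta-miR-103 were bta-miR-330, bta-miR-151-3p, bta-miR-17-5p, bta-miR-2285cc and bta-miR-10175-3p, with r of 0.74, 0.72, 0.68, 0.67 and 0.67 over 14 heifers. They are given as a description, having been picked for this from 340 miRNAs that share the same libraries and scaling factors. bta-miR-2285cc and bta-miR-10175-3p were scarce (7.79 and 4.64 CPM on average), and bta-miR-17-5p followed bta-miR-103 in SFH (r = 0.84) but little in FH (r = 0.12). At the other end of the order stood bta-miR-155, a miRNA induced in activated lymphocytes and macrophages, with r = −0.70 (rho = −0.72), and −0.61 without SFH heifers 21 and 32.

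bta-miR-107 was most like bta-miR-181b, a miRNA of lymphocyte development (r = 0.67, rho = 0.56), followed by bta-miR-3432a (0.62), bta-miR-20b (0.62), and bta-miR-2284y and bta-miR-2285av (0.60), whose counts equal each other in all 14 heifers and are no separate observations. Within FH, r was 0.26 for bta-miR-181b, 0.27 for bta-miR-20b and 0.22 for bta-miR-2284y, against 0.73, 0.91 and 0.78 within SFH. For bta-miR-3432a it was 0.63 and 0.76. The SD of the log2 level of bta-miR-107 itself was 0.19 in FH and 0.52 in SFH (n = 7 each). Differences in r between the groups were not tested. Leaving out the 2 heifers most distant from the median of each miRNA, r was 0.70 for bta-miR-181b, 0.74 for bta-miR-20b, 0.44 for bta-miR-2284y and 0.38 for bta-miR-3432a, and SFH heifer 30 was among those left out for the last 2. Least like it was bta-miR-143 of stromal and muscle cells, with r = −0.81 but rho = −0.46. That value rested on SFH heifers 21 and 30, without which r was −0.36.

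Levels of cell type miRNAs were set beside these values. The 5 lymphocyte miRNAs summed to 104504 ± 18281 CPM in FH heifers against 107803 ± 27302 CPM in SFH heifers (SD, n = 7 per group). miR-150 made up 61.6% of this. Of the 5, 0 passed the thresholds in edgeR or DESeq2, and 0 had an unadjusted p-value under 0.05 in edgeR. Over all 341 the edgeR shares were 3.81% and 5.87%, and 16 passed in DESeq2, so 0 among 5 is near the background. The sum of bta-miR-103 and bta-miR-107 was lower where this sum was higher, with r = −0.51 (permutation test, p = 0.0587, adjusted over 6 relations 0.352) and rho = −0.64 (p = 0.0150, adjusted 0.0899), in FH (r = −0.43) and in SFH (r = −0.70). r was −0.52 without SFH heifers 21 and 30, and −0.40 with library totals only (permutation test, adjusted p = 0.781). This relation did not pass after adjustment.

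Single lymphocyte miRNAs differed in how they lay beside the sisters. bta-miR-150 had r = −0.60 with bta-miR-103 and 0.54 with bta-miR-107, and bta-miR-342 had −0.65 and 0.55 (n = 14 heifers each, described without a test). bta-miR-181a had 0.30 and 0.40. bta-miR-223, of myeloid cells, had 0.07 and 0.51. SFH heifers 21 and 30 had the lowest and the highest value both of bta-miR-107 and of the summed lymphocyte miRNAs. How far the r values with bta-miR-107 rest on these heifers was not tested. All these points share libraries and scaling factors, and the part of cell composition in the levels of either sister was not tested.

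**Figure D4:**
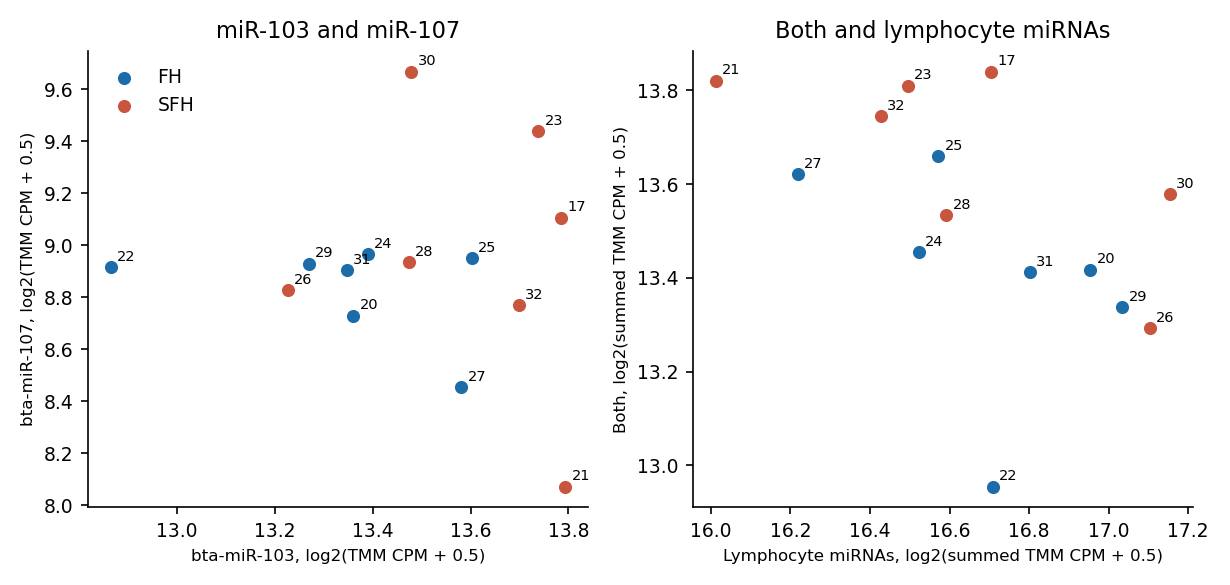
Left, bta-miR-107 (y axis) against bta-miR-103 (x axis), and right, the sum of both (y axis) against the summed lymphocyte miRNAs (x axis), all as log2(TMM-normalized CPM + 0.5), with 1 point per heifer, its number beside it and its group by colour. The left points show no common trend (r = −0.09), and the right points fall from left to right (r = −0.51).

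The sum of both was also set beside depth and other cells. With log2 total count r was 0.14, but 0.62 within FH and −0.33 within SFH (n = 7 each). With the myeloid list r was 0.10, with the erythroid list 0.12 and with the platelet list −0.23 (adjusted p = 0.766 for each of the 4 relations, permutation tests over 14 heifers), and the signs of these 3 turned when the 2 heifers at the greatest distance from each list median were left out, to −0.02, −0.05 and 0.23. Within FH they were −0.13, 0.11 and 0.15, and within SFH −0.04, 0.03 and −0.15. Red cell miRNAs were present, with bta-miR-451 at 1412 ± 531 CPM in FH heifers against 2398 ± 2191 CPM in SFH heifers and bta-miR-486 at 1081 ± 613 CPM in FH heifers against 1084 ± 579 CPM in SFH heifers (SD, n = 7 per group), while bta-miR-144 had 0 counts in all 14 heifers. In sum these made 1463 to 9236 CPM per heifer. Platelet and endothelial bta-miR-126-3p and bta-miR-126-5p together had 4.52 to 68.3 CPM.

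The listed stromal, epithelial and muscle miRNAs were low beside miR-150 and miR-223. Stromal miRNAs summed to 145 to 558 CPM, of which bta-miR-143 made up 82.1%, and bta-miR-214 had 8 counts in all. Of 6 epithelial miRNAs, bta-miR-200c was tested (185 ± 33.8 CPM in FH heifers against 164 ± 55.2 CPM in SFH heifers; SD, n = 7 per group), whereas bta-miR-205 had 3 counts and bta-miR-429 had 0 in all 14 heifers. Of 4 muscle miRNAs, bta-miR-1 reached 176 CPM in its highest heifer and had no count in 2 heifers. Of the 17 tested miRNAs of all cell and tissue lists, 0 passed the thresholds in edgeR or DESeq2, and 0 had an unadjusted p-value under 0.05 in edgeR. Over all 341 the edgeR shares were 3.81% and 5.87%, and 16 passed the thresholds in DESeq2. The median log2 fold change of the 17 was 0.07, beside 0.06 over all 341. These counts are near the background. Their part in the levels of bta-miR-103 and bta-miR-107 was not tested.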

How the data were processed

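Small RNA of PWBC was sequenced from 14 heifers (7 FH, 7 SFH), 1 library per heifer. The authors trimmed reads with cutadapt, aligned them with miRDeep2 to ARS-UCD1.2 and to miRBase precursors and mature miRNAs, and deposited raw counts listed by mature miRNA, some of them more than once. They also deposited CPM from edgeR 3.28.1 for the 341 miRNAs they retained, and 0 of these 4774 values differed from the counts scaled by the total over the 341, within a relative tolerance of 1e-06.

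Of entries that repeat a mature miRNA (177 of 1207), the one with the highest total was kept. miRNAs with CPM of at least 1 in at least 7 libraries were tested (SFH relative to FH, group as the only term) with TMM scaling and the quasi-likelihood test of edgeR 4.0.16 in R 4.3.3, adjusted by Benjamini-Hochberg. DESeq2 1.42.0 and limma 3.58.1 were alternatives. Exact permutation tests between the groups over 3432 arrangements used log2(TMM-normalized CPM + 0.5). For the ratio of the sisters they used raw counts, with 0.5 added to each. Their intervals are the shifts kept at p above 0.05, in steps of 0.005. The sign-flip test of this ratio within heifers ran over 16384 flips. Correlations used 100000 resamples (Python 3.11.15, scipy 1.17.1). The fits were tested on simulated data.

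The named miRNAs are the pair, the 5 most like each in Pearson's r, the 2 above and below each in mean CPM, and the lists. The pair and the lists were chosen with earlier results of these data known. The least alike miRNAs were named after their values were seen. Alternatives were other scalings, tools, filters and pseudocounts, other handling of repeated entries, total count as a covariate, and each heifer left out. No pair of libraries was identical (r of log2 values 0.866 to 0.943 across miRNAs). Sequences of the miRNAs were not used here.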

Additional observations from a re-analysis of the deposited data

How the results depend on the processing

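Across model fits, bta-miR-103 had log2 fold changes between 0.18 and 0.32 under 12 alternatives and between 0.18 and 0.31 with each heifer left out, and bta-miR-107 between 0.12 and 0.27 under 11 alternatives and between 0.069 and 0.32 with each heifer left out. Neither passed both thresholds in any of them. The exact test of bta-miR-103 passed p of 0.05 with library totals only or the deposited CPM table (0.32 each), and with a heifer left out its difference ran from 0.17 to 0.32, with p of at most 0.05 in 3 of 14 cases (without FH heifer 25 or 27 or SFH heifer 26). For the sum of both the difference was 0.32 with totals only or the deposited CPM table and 2063 CPM on the linear scale, each past p of 0.05, and 0.18 to 0.31 with a heifer left out, with p of at most 0.05 without the same heifers in turn. The difference between groups (SFH minus FH) in the log2 ratio of bta-miR-107 to bta-miR-103 ran from −0.25 without SFH heifer 30 to 0.067 without SFH heifer 21, with p no lower than 0.351. The correlation between the sisters changed sign with library totals only (0.081), as did that of their sum with total count (−0.10). The number of miRNAs past the thresholds was 23 with limma-voom, 20 with every precursor entry kept and 126 without the CPM filter, which tested 614 miRNAs, and 11 to 22 with a heifer left out. The cause of these changes was not tested. No paired analysis was possible because the groups share no replicate numbers. The number of heifers, the scaling, reads shared between the sisters and cell composition all limit what can be said of either miRNA, and these limits were not ranked. The scarce bta-miR-424-5p and bta-miR-497 had no count in 6 heifers each, and the part of depth in this was not tested.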

Other observations

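The spread of bta-miR-107 within the groups was compared after the values were seen. The mean absolute deviation from the group median, on log2(TMM-normalized CPM + 0.5), was 0.11 in FH and 0.36 in SFH, and the difference of 0.26 gave p = 0.0915 in an exact two-sided permutation test with 7 heifers per group. For bta-miR-103 the same values were 0.16 in FH and 0.16 in SFH (exact permutation p = 0.933).

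Among the 341 tested miRNAs, 8 pairs of different names had the same count in all 14 heifers. bta-miR-23b-3p and bta-miR-10174-3p form one such pair, and bta-miR-2284y and bta-miR-2285av another. bta-miR-103 and bta-miR-107 are not among them.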
